A study of Mus musculus with 12 samples.

Results

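The integrated stress response genes and cytosolic aminoacyl-tRNA synthetase genes were followed across 4 groups of GLAST-selected white matter cells. The 41 genes were chosen by name, with earlier results of these data known. They are stress factors (transcription factors and their regulators), stress effectors, enzymes of amino acid and folate metabolism, amino acid transporters and cytosolic synthetases. All 41 were measured, among 19505 named genes on the arrays. Cells came from wild-type C57BL/6 mice after 0, 3 or 12 weeks on a diet with 0.2% cuprizone, a copper-binding toxin under which oligodendrocytes die, and from GnT-IX-deficient C57BL/6 mice after 12 weeks. Mgat5b encodes the missing glycosyltransferase. The diet began at 8 to 12 weeks of age, which made mice with 12 weeks of diet older at sampling than those with 3. For the 0-week mice the same age range is given, without an age at sampling. Diet and age cannot be told apart. Each group held 3 biological replicates with 1 array each, and arrays are named below by group and replicate number. How the deficiency was made and whether tissue of several mice was pooled are not given in the sources used here. Levels are log2 values, and a difference of 1 is a doubling.

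The integrated stress response is a brake on protein synthesis. Kinases that sense misfolded protein, lack of amino acids, viral RNA or mitochondrial damage phosphorylate the initiation factor eIF2, which lowers translation in general but lets ATF4 be made. ATF4 then switches on genes that restore amino acid supply: synthetic enzymes, transporters and the synthetases that load amino acids onto tRNA. Under lasting stress CHOP, encoded by Ddit3, joins it and can push cells toward death. In demyelinating disease the response has been studied mostly in oligodendrocytes, and astrocytes can mount it too.

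Mgat5b was at 5.80 ± 0.21 (SD, n = 3) in wild-type and 3.98 ± 0.25 (SD, n = 3) in GnT-IX-deficient cells after 12 weeks, which matched the labels (difference -1.82, adjusted p = 0.00159). The astrocyte marker list averaged 9.70, 8.95, 9.33 and 9.05 in the wild-type 0-, 3- and 12-week and the deficient group. Slc1a3, which encodes GLAST, fell by 1.35 at 3 weeks, from 8.35 ± 0.44 to 7.00 ± 0.51 (SD, n = 3 each) (adjusted p = 0.0150), while Gfap, a filament gene of reactive astrocytes, rose by 1.97 (adjusted p = 0.0305). Of the 12 astrocyte markers 6 fell at 3 weeks and 1, Gfap, rose, with a median of -0.96, against 1.63% and 1.61% of all genes. In 11 of them every 3-week array lay below every 0-week array, against 10.5% of all genes. The part of this shift in the results was not tested. Mature oligodendrocyte markers lay at 8.63 to 9.95 in the 12 arrays. Microglial markers lay at 5.21 to 5.83 at 0 weeks, 6.72 to 9.02 at 3 weeks and 8.09 to 9.17 at 12 weeks in wild-type cells, and at 7.43 to 8.47 in deficient cells. In such mixed material fewer cells of a type and less RNA per cell cannot be told apart.

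ATF4 binds DNA with C/EBP partners at a composite element whose core was searched here as TGATGNAA, on both strands, in the 250 bases before each gene's start. Of the 30 genes with a RefSeq promoter (GRCm38.p6), 10 held a match, a share of 33.3%, against 3.44% of 15691 array genes. Many of these genes are on the list because they are known ATF4 targets, so this share is not independent of the choice. A match was found in 5 of the 14 genes that passed the expression threshold in some comparison, 35.7%, and in 5 of the 16 that did not, 31.2%. Thus the genes that moved and those that did not held the core about equally often. Aldh1l2, Cth, Slc7a3, Slc7a5, Cars, Rars, Wars, Vars, Hars, Lars and Nars were not searched. The matched stretches of the 5 genes that moved are shown 5′ to 3′ on the strand of the gene, since they are the ones with both a match and a result past the threshold. Slc7a11, picked after its values were seen, is shown beside them because it holds a pair of matches and its level did not pass the test. Capitals mark each match to the core or its reverse complement.
Asns (chr6:7693210-7693272, minus strand): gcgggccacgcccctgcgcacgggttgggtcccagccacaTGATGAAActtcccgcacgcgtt
Nupr1 (chr7:126625533-126625620, minus strand): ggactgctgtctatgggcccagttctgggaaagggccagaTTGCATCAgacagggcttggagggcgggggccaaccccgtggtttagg
Atf3 (chr1:191183396-191183483, minus strand): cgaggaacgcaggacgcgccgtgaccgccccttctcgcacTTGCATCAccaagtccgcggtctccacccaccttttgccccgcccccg
Chac1 (chr2:119351009-119351096, plus strand): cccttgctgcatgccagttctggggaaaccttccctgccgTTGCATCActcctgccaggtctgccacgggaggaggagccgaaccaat
Gars (chr6:55037931-55038000, plus strand): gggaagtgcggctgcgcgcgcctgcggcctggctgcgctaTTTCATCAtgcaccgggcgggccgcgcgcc
Slc7a11 (chr3:50443614-50443700, minus strand): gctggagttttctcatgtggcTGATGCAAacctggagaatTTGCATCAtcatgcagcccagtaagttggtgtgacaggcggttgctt
Nupr1, Atf3 and Chac1 share the same 8 letters, with the core on the opposite strand. The match ends 16 bases before the start in Asns, 23 in Gars, 103 in both Nupr1 and Atf3, and 186 in Chac1. Fgf21, Pck2, Tars and Vldlr, which did not pass the expression test, each held a match as well.

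After 3 weeks of cuprizone, 16 of the 41 genes rose in wild-type cells and 1, Cth, fell. Over all genes tested 1.61% rose and 1.63% fell. Since the 41 genes were chosen with earlier results known, shares of all genes give scale here and are no independent test. The median difference of the 41 genes was 0.53, beside -0.02 over all genes. The difference lay above 0 in 33 of the 41 genes, against 47.8% of all genes. At an unadjusted p under 0.05, 21 were higher and 2 lower by limma, against 8.81% and 7.3%. In 22 every 3-week array lay above every 0-week array, against 10.8% of all genes, and in 2 every one lay below, against 10.5%, which makes 21.2% in either direction. The rises were led by Asns and Ddit3. They took in every stress factor, 1 of 5 effectors, 4 of 10 enzymes, no transporter and 5 of 16 synthetases.

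**Figure D1:**
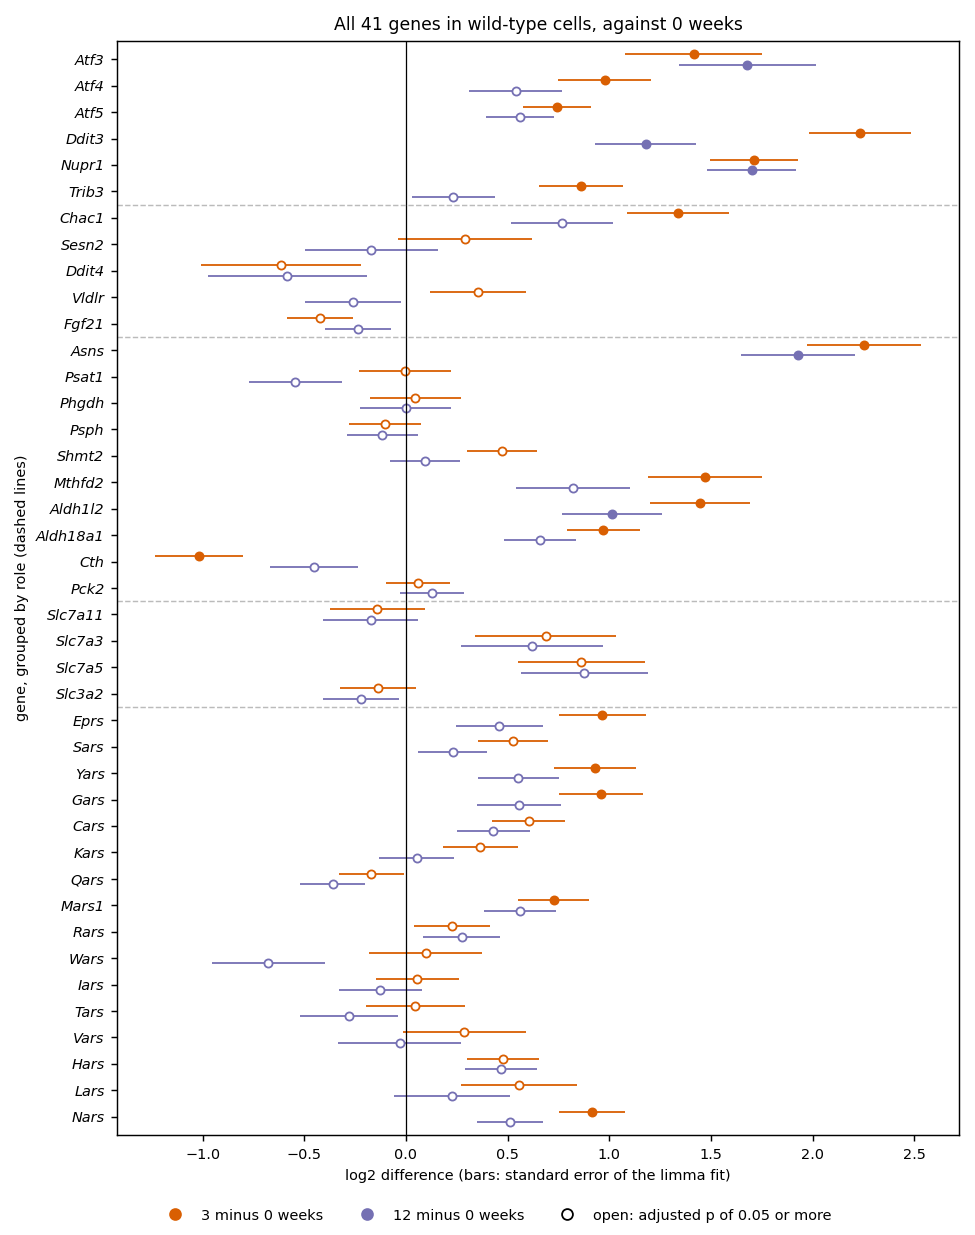
Log2 differences (x axis) of the 41 genes (y axis, grouped by role) in wild-type cells at 3 weeks (orange) and 12 weeks (purple), each against the same 0-week arrays, with standard errors as bars and filled points past the threshold. All 6 stress factors are filled at 3 weeks, while Psat1, Phgdh and Psph lie near 0 and Cth lies to the left.

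All 6 stress factors rose at 3 weeks, with a median of 1.20. Ddit3, the gene of the death-linked factor CHOP, was at 7.44, 7.23 and 7.39 at 0 weeks, 9.96, 9.21 and 9.59 at 3 weeks, 8.44, 8.36 and 8.80 at 12 weeks, and 8.59, 8.77 and 9.58 in deficient cells. Its 3-week arrays stood far above the 0-week ones, a 4.70-fold rise (2.23, SE 0.25, adjusted p = 0.000732). These values come from a probe cluster not placed on the genome, and the other, dimmer cluster of Ddit3 differed by 2.00. Nupr1, a small stress-induced chromatin protein, was at 7.17, 7.40 and 7.43 at 0 weeks, 9.17, 8.94 and 9.03 at 3 weeks, 8.65, 8.97 and 9.48 at 12 weeks, and 9.10, 9.48 and 9.76 in deficient cells. Its groups on the diet all lay well above the 0-week arrays, with a rise of 3.28-fold at 3 weeks (1.71, SE 0.22, adjusted p = 0.00119).

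Atf4, the gene of the central factor, was at 9.03, 9.82 and 9.46 at 0 weeks, 10.73, 10.17 and 10.34 at 3 weeks, 9.60, 10.15 and 10.18 at 12 weeks, and 9.99, 10.22 and 10.35 in deficient cells. It rose by 0.98 at 3 weeks (SE 0.23, adjusted p = 0.0316), without overlap, although replicate 2 of the 0-week group came close to the 3-week arrays. Because ATF4 is controlled mainly through translation, its transcript is only part of its activity. Atf5, a related factor under similar translational control, was at 5.91, 5.64 and 6.20 at 0 weeks, 6.70, 6.66 and 6.62 at 3 weeks, 6.52, 6.34 and 6.57 at 12 weeks, and 6.75, 6.71 and 6.62 in deficient cells. Its 3-week arrays were tightly bunched and higher by 0.74 (SE 0.17, adjusted p = 0.0253).

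Trib3, a pseudokinase that feeds back on ATF4 and CHOP, was at 5.66, 5.58 and 5.99 at 0 weeks, 6.51, 6.32 and 6.98 at 3 weeks, 5.96, 5.92 and 6.05 at 12 weeks, and 6.21, 6.02 and 6.62 in deficient cells. Its 3-week arrays lay above all other wild-type arrays, with a rise of 0.86 over 0 weeks (SE 0.21, adjusted p = 0.0340). Atf3, a stress-induced factor that also responds to inflammatory signals, was at 5.25, 5.29 and 4.72 at 0 weeks, 7.42, 6.14 and 5.95 at 3 weeks, 6.42, 7.41 and 6.47 at 12 weeks, and 5.85, 5.68 and 5.96 in deficient cells. Its rise of 1.42 (SE 0.34, adjusted p = 0.0333) had its highest array in 3-week replicate 1 and was 0.96 without it, and its highest 12-week value was in replicate 2. Those 2 arrays were also the ones with the highest microglial means of their groups, 9.02 and 9.17. They likewise had the highest means of 13 immediate early genes, which tissue handling can raise, 7.37 and 7.72. With the microglial mean of each array as a covariate, Atf3 was at 0.19 (SE 0.37) at 3 weeks, whereas Ddit3 was at 1.90 (SE 0.39) and Nupr1 at 1.54 (SE 0.35). The microglial means of the 0- and 3-week arrays did not overlap, so this fit cannot separate microglia from diet. The part of microglia in the Atf3 rise was not otherwise tested, and that of handling was not tested.

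Ddit3 and Nupr1 kept their calls at 3 weeks whichever array was left out. Atf3 missed the threshold on dropping 0-week array 1, 2 or 3 (adjusted p = 0.0885, 0.0785 and 0.116) or 3-week array 1 (0.119). Atf4 missed it on dropping 0-week array 1 or 3 (0.151 and 0.0762) or 3-week array 1 or 3 (0.136 and 0.0655). Atf5 missed it on dropping 0-week array 1 or 2 (0.0928 and 0.125) or 3-week array 1, 2 or 3 (0.0904, 0.0503 and 0.0595). Trib3 missed it on dropping 0-week array 1 or 2 (0.125 and 0.139) or 3-week array 1 or 3 (0.0794 and 0.129). For these last 4 factors the adjusted p was also just above 0.05 when only the 6 arrays compared were fitted, between 0.0530 and 0.0615.

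**Figure D2:**
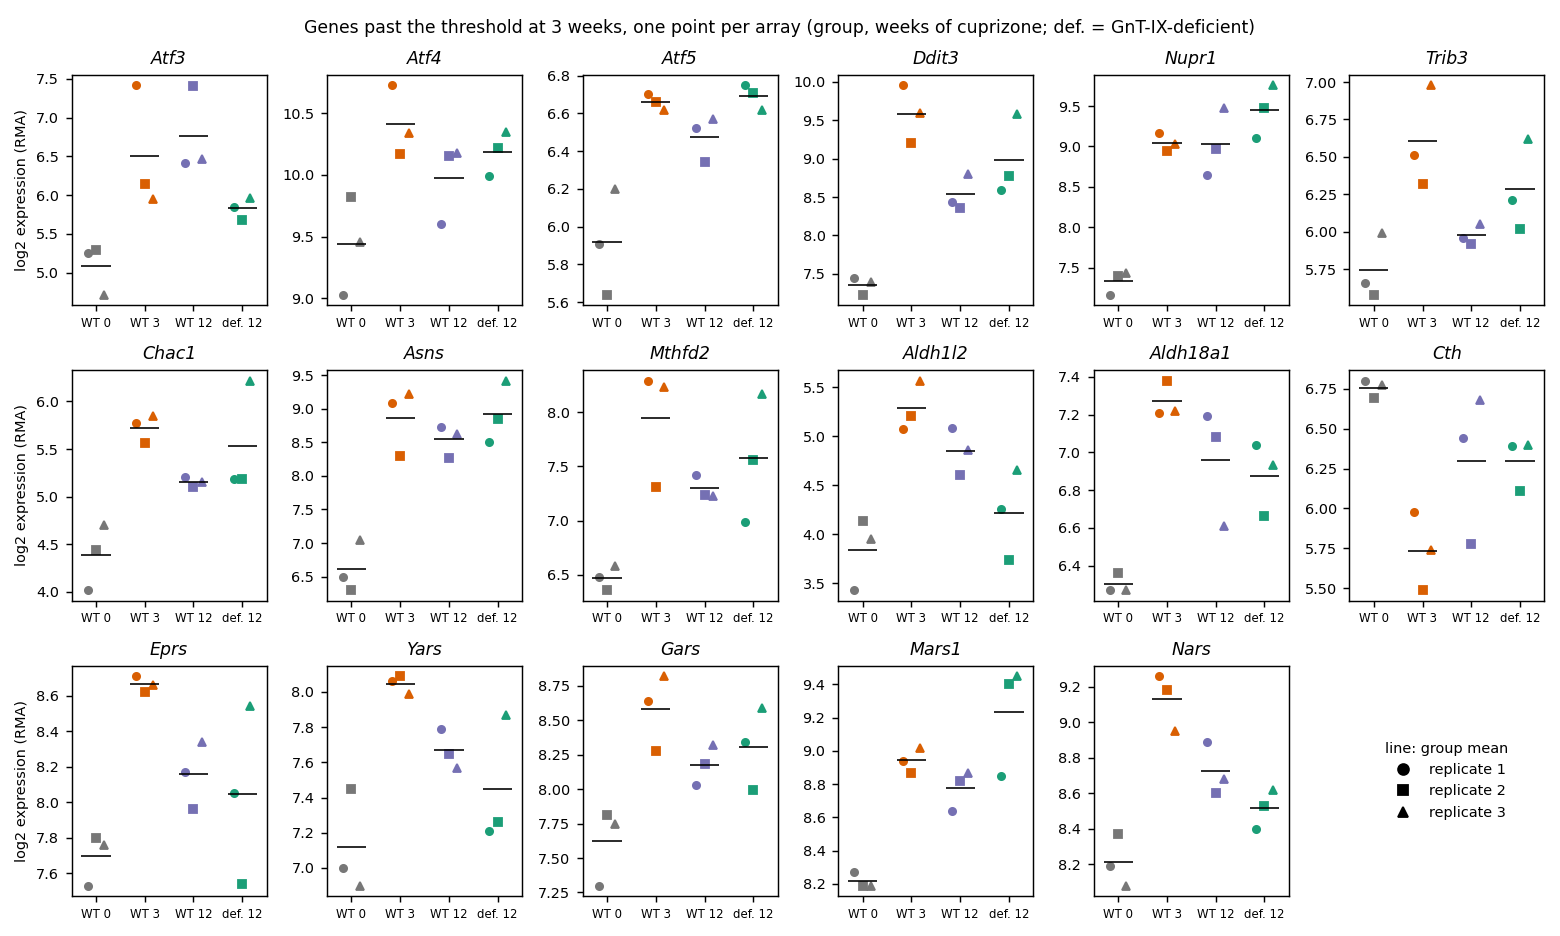
Log2 expression (y axis, a scale per panel) of the 17 genes past the threshold at 3 weeks, with 1 point per array in each of the 4 groups (x axis) and lines at group means. Ddit3, Nupr1 and Asns, among other genes such as Mthfd2 and Mars1, sit apart from 0 weeks in every later group. Replicate 3 of the deficient group is the highest deficient array in most panels.

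Among the 5 effectors Chac1 alone passed the test. Chac1, an enzyme that breaks down glutathione and a marker of the ATF4 and CHOP arm, was at 4.02, 4.44 and 4.70 at 0 weeks, 5.77, 5.56 and 5.85 at 3 weeks, 5.21, 5.10 and 5.15 at 12 weeks, and 5.19, 5.19 and 6.22 in deficient cells. It rose 2.53-fold at 3 weeks (1.34, SE 0.25, adjusted p = 0.00966), with no overlap, and missed the threshold on dropping 0-week array 1 (adjusted p = 0.0608). Sesn2 and Ddit4, whose products restrain the growth kinase complex mTORC1, differed from 0 weeks by 0.29 (SE 0.33) and -0.61 (SE 0.39). Vldlr, a lipoprotein receptor gene, differed by 0.36 (SE 0.24). Fgf21, a stress hormone gene, lay between 3.43 and 4.16 in all 12 arrays, near the lower quartile of the arrays (3.73 to 3.85), so a change in it would be hard to see here. Its 3-week arrays lay below its 0-week arrays by a difference of -0.42 (adjusted p = 0.198).

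Of the 10 enzymes, 4 rose and Cth fell. Asns, which makes asparagine and is the standard readout of amino acid shortage, was at 6.49, 6.30 and 7.05 at 0 weeks, 9.09, 8.29 and 9.22 at 3 weeks, 8.73, 8.27 and 8.63 at 12 weeks, and 8.51, 8.84 and 9.42 in deficient cells. This was the largest rise of the 41 genes, 4.77-fold (2.25, SE 0.28, adjusted p = 0.00119), and it ranked at 38 among the rises of all genes. No array on the diet came within the range of the 0-week arrays.

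Both Mthfd2 and Aldh1l2, enzymes of mitochondrial folate metabolism, rose. Mthfd2 was at 6.48, 6.36 and 6.58 at 0 weeks, 8.29, 7.31 and 8.23 at 3 weeks, 7.42, 7.24 and 7.23 at 12 weeks, and 6.99, 7.56 and 8.17 in deficient cells. It rose by 1.47 at 3 weeks (SE 0.28, adjusted p = 0.0103), with replicate 2 well below the other arrays of its group. It just missed the threshold on dropping 0-week array 2 (adjusted p = 0.0516) or 3-week array 1 (0.0505). Aldh1l2, which oxidises formyl-folate in mitochondria, was at 3.43, 4.14 and 3.95 at 0 weeks, 5.08, 5.21 and 5.57 at 3 weeks, 5.09, 4.61 and 4.86 at 12 weeks, and 4.26, 3.74 and 4.66 in deficient cells. It rose by 1.45 (SE 0.25, adjusted p = 0.00546) from a dim level, so the size of the rise is uncertain. Shmt2, which feeds serine carbon into the same pathway, differed by 0.47 (SE 0.17, adjusted p = 0.170), with no overlap between the groups.

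Aldh18a1, the first enzyme of proline synthesis from glutamate, was at 6.27, 6.36 and 6.27 at 0 weeks, 7.21, 7.38 and 7.22 at 3 weeks, 7.19, 7.08 and 6.61 at 12 weeks, and 7.04, 6.66 and 6.93 in deficient cells. Both early groups were tight, and the rise was 0.97 (SE 0.18, adjusted p = 0.00892). Cth, which makes cysteine from cystathionine, went the other way, at 6.80, 6.69 and 6.77 at 0 weeks, 5.98, 5.49 and 5.74 at 3 weeks, 6.44, 5.78 and 6.68 at 12 weeks, and 6.39, 6.11 and 6.40 in deficient cells. It fell by 1.02 (SE 0.22, adjusted p = 0.0194), although ATF4 is known to activate it in other cells. The call on Cth was lost on dropping 0-week array 1, 2 or 3 (adjusted p = 0.0813, 0.0606 and 0.0574) or 3-week array 2 or 3 (0.0541 and 0.0517).

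The 3 genes of serine synthesis, classic ATF4 targets that astrocytes use heavily at rest, showed no such difference. Phgdh, the first enzyme of the route, differed by 0.047 (SE 0.22), Psat1 by -0.0033 (SE 0.23) and Psph by -0.10 (SE 0.18). Pck2, the mitochondrial PEP carboxykinase gene, differed by 0.060 (SE 0.16). Thus Asns, Mthfd2 and Aldh1l2 moved by 1.45 to 2.25 while these 4 lay within 1 standard error of 0.

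None of the 4 amino acid transporter genes passed the test at 3 weeks (limma, 1 higher and none lower at an unadjusted p under 0.05), against 3.24% of all genes that did in either direction. Slc7a5, the large neutral amino acid transporter gene, was at 8.51, 7.38 and 7.64 at 0 weeks and 8.74, 8.98 and 8.40 at 3 weeks, a difference of 0.86 (SE 0.31, adjusted p = 0.170). Its 0-week replicate 1 lay within the 3-week range. Slc7a3, a cationic amino acid transporter gene, differed by 0.69 (SE 0.35). Slc7a11, the cystine and glutamate exchanger gene whose promoter holds both copies of the core, lay between 8.67 and 9.23 at 0 weeks and between 8.29 and 9.02 at 3 weeks. Its difference was -0.14 (SE 0.23), and that of Slc3a2, the heavy chain shared by Slc7a5 and Slc7a11, was -0.14 (SE 0.19).

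Of the 16 cytosolic synthetase genes 5 rose at 3 weeks and none fell, against 1.61% and 1.63% of all genes, with a median of 0.50. Eprs, which charges both glutamate and proline tRNA, was at 7.53, 7.80 and 7.76 at 0 weeks, 8.71, 8.62 and 8.66 at 3 weeks, 8.17, 7.96 and 8.34 at 12 weeks, and 8.05, 7.54 and 8.54 in deficient cells. Gars, the glycyl synthetase gene, was at 7.30, 7.81 and 7.75 at 0 weeks, 8.64, 8.28 and 8.82 at 3 weeks, 8.03, 8.18 and 8.32 at 12 weeks, and 8.34, 7.99 and 8.59 in deficient cells. These genes rose alike, Eprs by 0.97 (SE 0.22, adjusted p = 0.0238) and Gars by 0.96 (SE 0.21, adjusted p = 0.0205), and neither overlapped its 0-week arrays.

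Yars, for tyrosine, was at 7.00, 7.45 and 6.90 at 0 weeks, 8.06, 8.09 and 7.99 at 3 weeks, 7.79, 7.65 and 7.57 at 12 weeks, and 7.21, 7.26 and 7.87 in deficient cells. Nars, for asparagine, the product of Asns, was at 8.19, 8.37 and 8.08 at 0 weeks, 9.26, 9.18 and 8.95 at 3 weeks, 8.89, 8.60 and 8.68 at 12 weeks, and 8.40, 8.53 and 8.62 in deficient cells. Yars rose by 0.93 (SE 0.20, adjusted p = 0.0205) and Nars by 0.92 (SE 0.16, adjusted p = 0.00707), again without overlap. Mars1, for methionine, was at 8.27, 8.19 and 8.19 at 0 weeks, 8.94, 8.87 and 9.02 at 3 weeks, 8.64, 8.82 and 8.87 at 12 weeks, and 8.85, 9.40 and 9.45 in deficient cells. Its 0-week arrays were nearly equal, and it rose by 0.73 (SE 0.18, adjusted p = 0.0362).

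Nars kept its call whichever array was left out. Eprs missed the threshold on dropping 0-week array 1, 2 or 3 (adjusted p = 0.112, 0.0676 and 0.0587) or 3-week array 1 or 3 (0.0830 and 0.0616). Gars missed it on dropping 0-week array 1 (0.107) or 3-week array 1 or 3 (0.0732 and 0.0769), and Yars on dropping 0-week array 1 or 3 (0.0928 and 0.0776) or 3-week array 1 (0.0689). Mars1 missed it whichever array was dropped: 0.103, 0.119 and 0.0919 for the 0-week group and 0.109, 0.0533 and 0.104 for the 3-week group.

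The other 11 cytosolic synthetase genes ranged from -0.17 (Qars, glutamine) to 0.60 (Cars, cysteine, SE 0.18, adjusted p = 0.0873). Cars, Sars (serine, 0.53), Lars (leucine, 0.56), Hars (histidine, 0.48) and Rars (arginine, 0.23) lay higher in every 3-week array than in every 0-week array without passing the test. Over all genes 10.8% lay higher without overlap. Rars was dim, at means of 4.73 and 4.95 at 0 and 3 weeks, with an unadjusted p of 0.247 (limma). Kars (lysine) was at 0.37, Vars (valine) at 0.29, Wars (tryptophan) at 0.097, Iars (isoleucine) at 0.057 and Tars (threonine) at 0.047. Eprs and Mars1 belong to the large multisynthetase complex, of which 7 genes are listed here. Of those 7, 2 rose beside 3 of the 9 others, against 1.61% of all genes. The medians of the complex and the rest, a split made after the values were seen, were 0.37 and 0.53. Mitochondrial synthetases, which a separate set of genes encodes, gave none of 16 past the threshold (limma, none higher and 2 lower at an unadjusted p under 0.05), with a median of -0.087. Over all genes 3.24% passed in either direction, and 8.81% were higher and 7.3% lower at that unadjusted p. None of 16 is thus close to the share over all genes.

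Further genes of the response came from lists of neighbours in the pathway. At 3 weeks, of 18 other ATF4 targets and partners 3 rose and none fell, against 1.61% and 1.63% of all genes, with a median of 0.037 and 9 differences above 0. At an unadjusted p under 0.05, 4 were higher and 3 lower (limma). The lower ones, named after their values were seen, were Cbs, which makes cystathionine (-0.87, adjusted p = 0.0832), Slc1a4, a neutral amino acid transporter gene (-0.84, adjusted p = 0.0734), and Jdp2, a gene of the AP-1 family (-0.55, adjusted p = 0.288). The genes that rose were Slc7a1, the arginine and lysine carrier gene (1.72, SE 0.22, adjusted p = 0.00119), Cebpg, a dimer partner of ATF4 (1.62, SE 0.26, adjusted p = 0.00429), and Slc38a2, a glutamine carrier gene (0.93, adjusted p = 0.0461). Slc7a1 was at 6.17, 5.90 and 6.04 at 0 weeks and 7.64, 7.80 and 7.84 at 3 weeks, and Cebpg at 6.44, 5.97 and 6.23 and then 7.95, 7.41 and 8.15. Neither gene's groups overlapped, and both calls were kept whichever array was left out.

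Of 11 genes of the eIF2 switch itself, Ppp1r15a, which encodes the stress-induced phosphatase subunit GADD34, was the 1 that rose (0.86, SE 0.21, adjusted p = 0.0340). The median of the 11 was 0.20, and 8 differences lay above 0. At an unadjusted p under 0.05, 3 were higher and none lower (limma), against 8.81% and 7.3% of all genes. The kinase genes Eif2ak1, Eif2ak2, Eif2ak3 and Eif2ak4 differed by 0.20, -0.20, -0.030 and -0.34, and none passed. The kinases are controlled by their own phosphorylation, which arrays do not measure. A list of 13 genes held endoplasmic reticulum chaperones and other genes of the response to misfolded protein there. Of these, Edem1 (1.09, SE 0.20, adjusted p = 0.00834) and Sdf2l1 (1.02, SE 0.24, adjusted p = 0.0308) rose, while Hspa5, the main chaperone BiP, differed by 0.23 (SE 0.22). The median of the 13 was 0.37, and 11 differences lay above 0. At an unadjusted p under 0.05, 5 of the 13 were higher and none lower (limma). In 6 every 3-week array lay above every 0-week array, against 10.8% of all genes. Of 8 mitochondrial stress genes Hspa9, the mitochondrial chaperone mortalin, rose by 1.23 (SE 0.30, adjusted p = 0.0358), and of 5 other synthetase and scaffold genes Aimp1, a scaffold of the multisynthetase complex, rose by 0.95 (SE 0.25, adjusted p = 0.0492). The 8 mitochondrial stress genes had a median of 0.215, with 3 higher and 1 lower at an unadjusted p under 0.05 (limma).

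Edem1 kept its call whichever array was left out. Ppp1r15a missed the threshold on dropping 0-week array 1, 2 or 3 (adjusted p = 0.0924, 0.121 and 0.0867) or 3-week array 1 or 2 (0.141 and 0.0710). Sdf2l1 missed it on dropping 0-week array 1, 2 or 3 (0.0928, 0.126 and 0.0622) or 3-week array 1 (0.110), and its difference was then 0.69. Hspa9 missed it on dropping 0-week array 1, 2 or 3 (0.0885, 0.129 and 0.0939) or 3-week array 1 or 3 (0.133 and 0.105). Aimp1 missed it on dropping 0-week array 1, 2 or 3 (0.177, 0.107 and 0.108) or 3-week array 1 or 3 (0.164 and 0.173), and Slc38a2 on dropping 0-week array 1 or 3 (0.132 and 0.165) or 3-week array 2 or 3 (0.124 and 0.108). The call on Slc38a2 was also lost with cyclic loess (0.0525), median centring (0.0528), array weights (0.0537), the 6 arrays compared alone (0.0937) and the choroid plexus covariate (0.0589), so that it held in 7 of 17 alternatives. That on Sdf2l1 was lost with the 6 arrays alone (0.0739), and that on Aimp1 with the 6 arrays alone (0.0523) and with median centring (0.0620). With the microglial covariate Sdf2l1 was at 0.17 and Ppp1r15a at 0.26, against 2.01 for Slc7a1 and 1.46 for Cebpg. Here too the fit cannot separate microglia from diet.

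Markers of other cells moved over the same 3 weeks, and their part in these results was not tested beyond the covariates and left-out arrays given here. Microglial markers rose in 10 of 13 cases, with a median of 2.32, and 4 of 13 immediate early genes, which tissue handling can also raise, rose with a median of 0.87. None of 10 mature oligodendrocyte markers passed, with a median of -0.11, and none of 6 precursor markers did, with a median of 0.62. All 6 precursor markers lay above 0, and 4 were higher and none lower at an unadjusted p under 0.05 (limma). Of 9 neuronal markers 2 rose, Gad1 by 1.73 (adjusted p = 0.0165) and Snap25 by 1.20 (adjusted p = 0.0334), with a median of 0.45 over the list. None of 10 endothelial markers passed at 3 weeks (limma, 2 higher and none lower at an unadjusted p under 0.05), with a median of 0.39. The part of precursor, neuronal and endothelial markers in the results was not tested. With the microglial mean as a covariate no listed gene passed and 3 genes in all did, and the standard errors of the 17 genes were 1.63 times as large (median). The 17 genes then kept a median of 96.7% of their difference, and 15 of them more than 75%. Atf3 (13.5%) and Atf4 (64.5%) kept the least. The microglial means of the 0-week arrays (5.21 to 5.83) and the 3-week arrays (6.72 to 9.02) did not overlap. The covariate fit therefore extrapolates and cannot separate microglia from diet, whatever share of a difference is kept. Without 3-week array 1, the array with the highest microglial mean, 8 of the 17 genes still passed, and Asns was among those whose call no left-out array ended. With the oligodendrocyte or the choroid plexus mean as a covariate all 17 passed. Those means differed little between 0 and 3 weeks, so these fits could change the differences little. They were 9.67 and 9.63 for oligodendrocyte and 5.05 and 5.34 for choroid plexus markers.

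**Figure D3:**
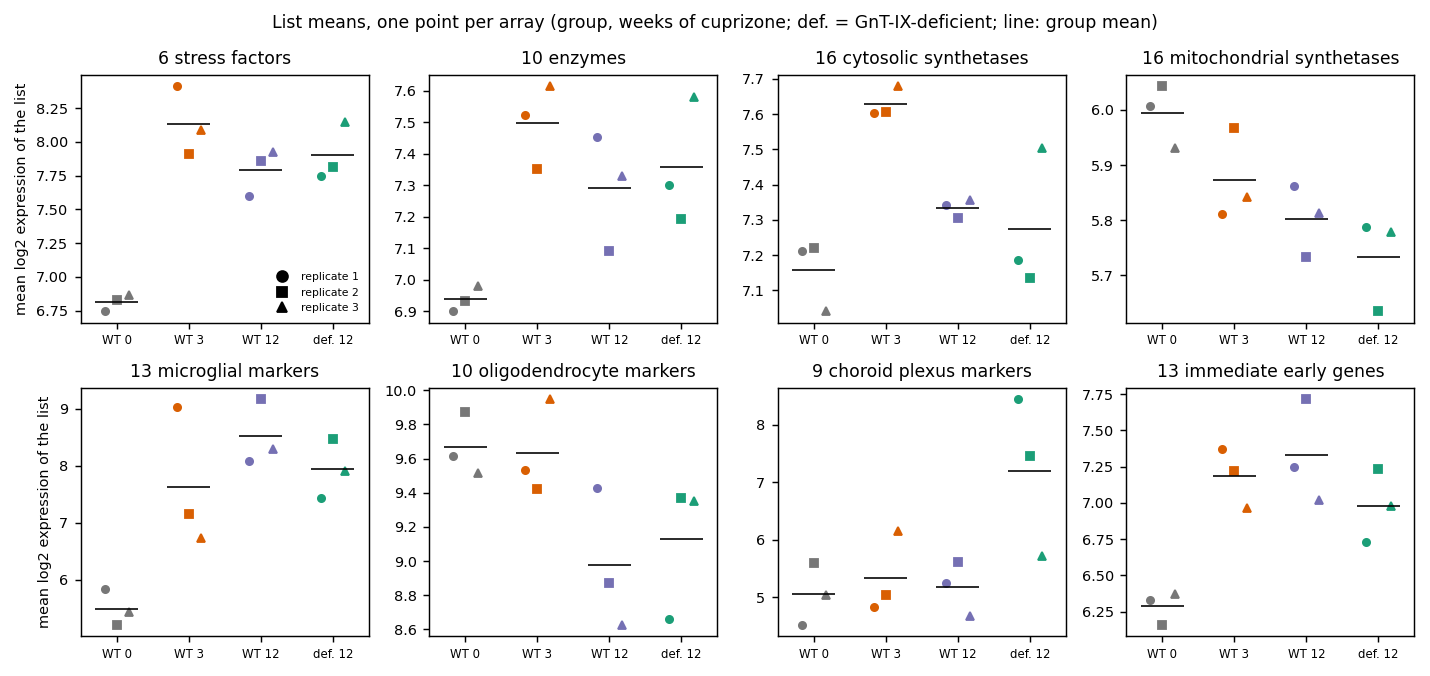
Mean log2 expression (y axis, a scale per panel) of 8 gene lists in each array, by group (x axis), with lines at group means. The stress factors, enzymes and cytosolic synthetases are highest at 3 weeks, the mitochondrial synthetases are not, and the microglial and choroid plexus means differ strongly between arrays of one group.

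After 12 weeks fewer of the genes passed the test. Of the 41 genes 5 lay above 0 weeks by the test (2.11% of all genes did) and none below (0.523%), 2.64% in either direction, with a median of 0.23 beside -0.013 over all genes. The difference lay above 0 in 26 genes, against 48.2% of all genes. At an unadjusted p under 0.05, 18 were higher and 3 lower by limma, against 8.21% and 6.85%. The groups did not overlap in 16 higher and 3 lower genes, against 10.8% and 9.95%, or 20.8% in either direction. This comparison used the same 0-week arrays as the one at 3 weeks. Asns was highest at 1.93 (3.81-fold, SE 0.28, adjusted p = 0.00242), followed by Nupr1 at 1.70 (SE 0.22, adjusted p = 0.00122), Atf3 at 1.68 (SE 0.34, adjusted p = 0.0170), Ddit3 at 1.18 (SE 0.25, adjusted p = 0.0214) and Aldh1l2 at 1.01 (SE 0.25, adjusted p = 0.0403). No synthetase, transporter or effector passed, and 7 of 16 synthetases were higher and 2 lower at an unadjusted p under 0.05 (limma). Chac1 was at 0.77 (adjusted p = 0.140), Mthfd2 at 0.82 (adjusted p = 0.157) and Mars1 at 0.56 (adjusted p = 0.122), each without overlap of the groups. Atf4 was at 0.54 (adjusted p = 0.278), Atf5 at 0.56 (adjusted p = 0.0992) and Trib3 at 0.23.

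Asns and Nupr1 kept their 12-week calls whichever array was left out. Atf3 missed the threshold on dropping 0-week array 1, 2 or 3 (adjusted p = 0.0541, 0.0558 and 0.0545) or 12-week array 2 (0.101). Ddit3 missed it on dropping 0-week array 1 or 2 (0.0716 and 0.101) or 12-week array 2 or 3 (0.0701 and 0.0848). Aldh1l2 missed it whichever array was dropped, at 0.203, 0.0717 and 0.0676 for the 0-week group and 0.113, 0.0942 and 0.105 for the 12-week group, and also with median centring (0.0512) and the choroid plexus covariate (0.0536). Against 0 weeks, 11 of 13 microglial markers were higher at 12 weeks (median 3.33), 1 of 10 mature oligodendrocyte markers fell (median -0.74), and 6 of 13 immediate early genes rose (median 1.09). Endothelial markers rose in 4 of 10 cases, with a median of 0.99, and did not overlap with 0 weeks in 9 of 10; their part in the results was not tested. With the microglial covariate Asns was at 1.83 (SE 0.58), Nupr1 at 1.45 (SE 0.45), Ddit3 at 0.71 (SE 0.50) and Atf3 at -0.049 (SE 0.47), with none past the threshold. With the oligodendrocyte covariate none passed either, while Asns was at 2.29 (SE 0.37, adjusted p = 0.0545) and Nupr1 at 1.65 (SE 0.30, adjusted p = 0.0727). Neither marker mean overlapped between the 0- and 12-week arrays, so neither fit can separate its marker level from diet.

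Some genes pointed down at 12 weeks without passing the test. Wars, which interferon also induces, was at -0.68 (SE 0.28), Psat1 at -0.54 (SE 0.23), Ddit4 at -0.58 (SE 0.39), Cth at -0.45 (SE 0.22) and Qars at -0.36 (SE 0.16). Phgdh had the same mean, 8.13, at both times. Among neighbours in the pathway, Cebpg was at 1.15 (adjusted p = 0.0316), Slc7a1 at 0.98 (adjusted p = 0.0271) and Aimp1 at 1.03 (adjusted p = 0.0384). Cebpg lost its call on dropping 0-week array 1, 2 or 3 (0.0727, 0.156 and 0.0659) or 12-week array 2 or 3 (0.137 and 0.0934). Slc7a1 lost it on dropping 0-week array 1, 2 or 3 (0.0761, 0.129 and 0.0596) or 12-week array 1 or 2 (0.0861 and 0.0942), and Aimp1 whichever was dropped (0.167, 0.103 and 0.0768, then 0.0905, 0.147 and 0.0848) and with median centring (0.0515). With the oligodendrocyte covariate the adjusted p was 0.164 for Cebpg, 0.165 for Slc7a1 and 0.0708 for Aimp1, and with the microglial one it was 0.999 for each.

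Set directly against 3 weeks, the 12-week arrays gave no listed gene past the threshold (limma, 1 higher and 10 lower at an unadjusted p under 0.05), where 0.082% of all genes passed, 0.0256% higher and 0.0564% lower, and 5.69% and 5.7% were higher and lower at that unadjusted p. The median of the 41 genes was -0.31, beside 0.013 over all genes, and 7 of the 41 differences lay above 0, against 52.3% of all genes. In 14 genes every 12-week array lay below every 3-week array, against 8.1% of all genes, and in none above, against 7.83%. Ddit3 differed most, from 9.59 ± 0.38 to 8.53 ± 0.23 (SD, n = 3 each), by -1.05 (SE 0.25, adjusted p = 0.107). Wars followed at -0.77 (SE 0.28), Mthfd2 at -0.65 (SE 0.28), Trib3 at -0.63 (SE 0.21), Vldlr at -0.62 (SE 0.24) and Chac1 at -0.57 (SE 0.25).

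Of the 16 genes that rose at 3 weeks, 15 had a 12-week mean between those of 0 and 3 weeks, and Atf3 had one above. Since the 3-week values chose these 16, some return is built into that count. Nupr1 differed least of the 16, by -0.013 (SE 0.22), and Asns by -0.32 (SE 0.28). Cth, the gene that fell, was at 0.56 (SE 0.22). The 4 transporters differed by -0.083 to 0.013.

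**Figure D4:**
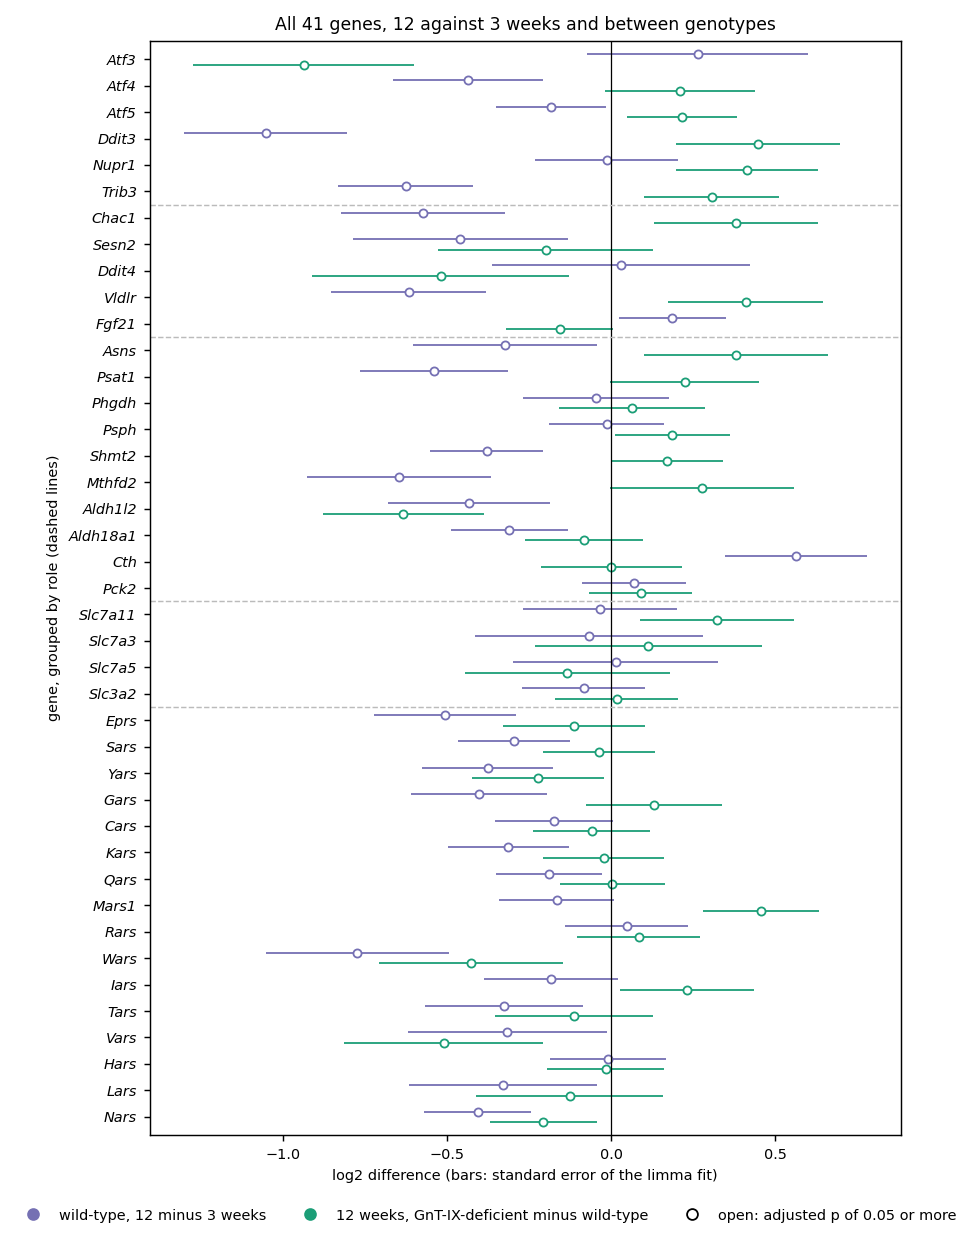
Log2 differences (x axis) of the 41 genes (y axis, grouped by role) between 12 and 3 weeks in wild-type cells (purple) and between genotypes at 12 weeks (green), with standard errors as bars. Every point is open, so no gene passed in either comparison; most purple points lie left of 0, and the green ones lie on both sides.

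Loss of GnT-IX was compared at 12 weeks only. No listed gene passed the test (limma, 1 higher and 2 lower at an unadjusted p under 0.05), while 0.0256% of all genes passed, 0.0205% higher and 0.00513% lower, and 3.65% and 3.34% were higher and lower at that unadjusted p. The median of the 41 genes was 0.017, with 22 of them above 0, beside 47.6% of all genes. Every deficient array lay above every wild-type array in 1 gene, Atf5, against 5.27% of all genes, and below in 2, Atf3 and Fgf21, against 5.57%. Atf3 differed most, with every deficient array (5.68 to 5.96) below every wild-type array (6.42 to 7.41), by -0.94 (SE 0.34, adjusted p = 0.592). Aldh1l2 was at -0.63 (SE 0.25, adjusted p = 0.633) and Mars1 at 0.46 (SE 0.18, adjusted p = 0.627). Ddit3 was at 0.45 (SE 0.25), Nupr1 at 0.41 (SE 0.22) and Asns at 0.38 (SE 0.28), none past the threshold. The microglial mean was 7.93 ± 0.52 in deficient and 8.51 ± 0.58 in wild-type cells (SD, n = 3 each).

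The 3 deficient arrays were unequal. Replicate 3 was the highest deficient array for 31 of the 41 genes, among them 14 of the 16 synthetases, and for 14 of the 16 genes that had risen at 3 weeks. Chac1 stood at 6.22 there against 5.19 in both other arrays, Mthfd2 at 8.17 against 6.99 and 7.56, and Ddit3 at 9.58 against 8.59 and 8.77. Choroid plexus markers were lowest in replicate 3, at 8.44, 7.45 and 5.71 in replicates 1, 2 and 3, with 4.52 to 6.14 in the wild-type arrays. The 41 genes did not mirror that order, averaging 7.24, 7.15 and 7.56. Replicate 2 was the lowest deficient array for 21 of them and replicate 1 for 13. Ependymal markers averaged 6.78, 8.06 and 7.58 in the deficient arrays and 6.11 to 6.94 in the wild-type arrays. Between genotypes at 12 weeks, 9 of 9 ependymal markers lay higher in deficient cells, with a median of 1.04, and 8 were higher at an unadjusted p under 0.05 but none passed (limma). For choroid plexus markers the same counts were 9 of 9 and 7, with a median of 2.04 and none past the threshold. The part of ependymal markers in the result was not tested, and that of choroid plexus markers only through the covariate given next. Without replicate 3 the median of the 41 genes was -0.050, without replicate 1 it was 0.035, without replicate 2 it was 0.095, and with the choroid plexus mean as a covariate it was 0.20, and in each case no listed gene passed.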

How the data were processed

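Per the submitters' processing notes, the authors made the deposited log2 values in Affymetrix Expression Console 1.4 with RMA, a method that equalises the spread of values between arrays and shrinks differences of dim genes. Array medians lay between 5.38 and 5.45. Per the labels' protocols either of a pair of RNA kits was used, with no record by sample, so kit and group cannot be told apart. Of 22206 transcript clusters, 19572 had 1 gene symbol and all matched RefSeq by Entrez identifier, none had several and 2634 were unnamed here. For 55 genes with several clusters the brightest was taken, which left 19505 genes. The genome build of the arrays is not given in the sources used.

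The two-sided limma test (version 3.58.1, under R 4.3.3) took all 12 arrays into one fit of 4 group means, which left 8 residual degrees of freedom. P-values were adjusted by Benjamini-Hochberg across all genes, with a threshold of 0.05. "Rose" and "fell" mean past that threshold, and SE is from that fit. All listed genes are named. A gene past the threshold in any comparison gets its value in every array. Mgat5b, Slc1a3 and Gfap are always given, and up to 3 genes past the threshold are named per neighbouring pathway list and comparison. Of 220 list genes 203 were measured, and the others were not analysed here. The members and lists were chosen with earlier results of these data known.

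The test was tried on simulated data with independent genes, 100 per size. It recovered 58%, 54%, 72% and 56% of log2 changes of 1 and 97%, 94%, 97% and 97% of changes of 2, for 3 against 0, 12 against 0 and 12 against 3 weeks and the genotypes. Each simulated comparison gave 155 to 182 calls. In the data, 12 against 3 weeks and the genotypes gave 16 and 5 calls over all genes. Adjustment is stricter with fewer calls, so the simulated shares overstate recovery in those comparisons. Alternatives covered normalization, centring, dim genes, clusters, variance model, array weights, arrays fitted, replicate block, 3 marker means as covariates, and each array left out. Figures were drawn with matplotlib 3.10.9.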

Additional observations from a re-analysis of the deposited data

How the results depend on the processing

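The count of 17 listed genes past the threshold at 3 weeks stayed within 1.5 times under 10 alternatives to the fit and fell to 0 once microglial markers entered as a covariate. It ranged from 7 to 14 with 1 array left out: 7, 10 and 11 on dropping 0-week array 1, 2 or 3, and 8, 14 and 10 on dropping 3-week array 1, 2 or 3. The count of 5 at 12 weeks fell to 0 with the microglial or the oligodendrocyte mean as a covariate and ranged from 2 to 4 with 1 array left out: 2, 2 and 3 for the 0-week arrays, and 4, 2 and 4 for those at 12 weeks. It was 7 with array weights. Atf3 at 12 weeks went to -0.049 with the microglial covariate. Both other comparisons had 0 listed genes in all 17 alternatives. The median of the 41 genes kept its sign throughout, except between the genotypes (-0.050 to 0.20). Same-numbered replicates did not pair (r of deviations -0.28 to 0.22, and 2 to 4 of 6 arrays per comparison matched their own number best). With the replicate number as a block 17, 5, 0 and 0 listed genes passed, and Aimp1 and Hspa9 missed at 3 weeks (both 0.0567). Over all genes the counts of 632, 514, 16 and 5 ranged from 3 to 887, 0 to 919, 0 to 146 and 1 to 49. The same alternatives for the 8 neighbouring genes were chosen after seeing the data. With 3 arrays a group, many changes under 2-fold can be missed.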
